A study of Zea mays with 9 samples.

Results

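The nicotianamine synthase (NAS) family was followed through 6 annotated genes in roots of maize seedlings given one of 3 forms of nitrogen. They are GRMZM2G030036, GRMZM2G034956, GRMZM2G385200, GRMZM2G124785, GRMZM2G312481 and AC233955.1_FGT003, taken by identifier, and each is represented by 1 probe among the 39372 transcripts of a one-colour (Cy3) microarray. The study annotated GRMZM2G030036 and GRMZM2G124785 as ZmNAS2 and the other 4 as ZmNAS1, and the RefSeq gene table holds GRMZM2G030036 under the name nas2 and GRMZM2G385200 under nas1. These 6 are the synthases that the study listed for free amino acids against inorganic nitrogen on the same arrays, so that their direction in that comparison is not independent evidence.

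Seedlings of the commercial hybrid P0423, described in the labels as 4 days old, were grown for 3 days with a protein hydrolysate supplied by SICIT2000 (Bio), with a mixture of amino acids of the same composition (Aa) or with NH4H2PO4 as inorganic nitrogen (N). Total N was 11.3 mg per litre in every treatment, and all solutions shared the same diluted base, in which iron was given as Fe-EDTA. NH4H2PO4 brings phosphate with its nitrogen, and the study describes no matching phosphate for Bio or Aa. The form of nitrogen and the supply of phosphate therefore cannot be told apart in the comparisons with N. The experiment was run 3 times, and each of the 3 arrays of a treatment carried RNA from the pooled roots of 24 seedlings. A pool of whole roots gives no value for a single plant or cell type, and fewer cells of a type cannot be told apart from less RNA per cell. The probes were designed on the inbred B73, not on the hybrid.

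Nicotianamine synthase joins molecules of S-adenosylmethionine into nicotianamine, a chelator that carries iron, zinc and copper inside plants, and releases methylthioadenosine. In grasses, nicotianamine is also the precursor of the phytosiderophores of the mugineic acid family, which are secreted by roots, bind ferric iron in the soil and are taken up again as the iron complex (Strategy II). Transcripts of the pathway are well known to accumulate in grass roots short of iron.

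The sequences at hand for the family are the primers with which the study measured GRMZM2G030036 by qRT-PCR, the one synthase chosen for that assay. They are printed to show what that assay was primed with, 5′ to 3′ and in lower case throughout, since no part of them is singled out.
GRMZM2G030036 forward: cgctgtttcaatctctcgtgt
GRMZM2G030036 reverse: ggtgcattgtgcacactgttc
No qRT-PCR value was used. The members are related copies, and how far a probe of one also binds the transcript of another was not tested.

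A level is given as log2 intensity after subtraction of the array's own 75th percentile (617.1 to 962.1 intensity units over the 9 arrays). From 27019 to 32309 transcripts per array were well above background as judged by the scanner software, and the correlation between any pair of arrays was 0.96 to 0.99. The 3 treatments were together on every slide and kept their places there, so that place on the slide and treatment cannot be told apart. The replicate number is the number of the slide. Of 3 root markers, rth3, a gene needed for root hair elongation, and ZmCASP1, a Casparian strip protein, stood well above background on each of the 9 arrays, and rtcs, a gene of crown root initiation, on 8. The mean log2 difference of rtcs was -1.74 in Aa vs. N and -2.32 in Bio vs. N, and that of ZmCASP1 was 1.16 and 0.82, without overlap between the arrays of either pair. Of 6 kernel markers (zeins), 2 to 4 per array were well above background, with a summed level of -1.73 to -0.90 on Bio arrays, -1.71 to -1.06 on Aa arrays and -1.23 to -0.30 on N arrays. The summed level of 9 shoot genes (chlorophyll-binding proteins and the small subunit of Rubisco) was 1.38 to 4.13 on Bio arrays, -0.27 to 1.27 on Aa arrays and -0.03 to 1.89 on N arrays, and 5 to 8 of them on Bio, 4 to 6 on Aa and 5 to 6 on N arrays were well above background. The shoot sum follows its brightest genes, and lhcb6 alone stood at 4.03 on Bio 1. In Bio vs. N 7 of the 9 shoot genes were higher on average (median 1.09, beside 0.03 over all transcripts). Lower were cab48 (-0.22) and the Rubisco gene GRMZM2G098520 (-0.97), which was not well above background on any array. The part of these markers in the NAS values was not tested.

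All 6 NAS transcripts had their highest levels on Aa arrays, their lowest on N arrays, and levels in between on average in Bio roots. GRMZM2G030036 (ZmNAS2) stood at -3.76, -4.32 and -0.58 on arrays Bio 1, 2 and 3, at -1.04, 0.62 and 0.06 on arrays Aa 1, 2 and 3, and at -4.49, -5.72 and -3.05 on arrays N 1, 2 and 3. Its Aa arrays lay above every N array, whereas array Bio 3 fell among the Aa arrays and Bio 1 and Bio 2 fell among the N arrays. On array N 2 this probe was not well above background, so that the lowest of its values is poorly measured. GRMZM2G124785, the other transcript annotated as ZmNAS2, showed the same arrangement, with -0.09, -0.34 and 2.85 on the Bio arrays, 2.35, 4.06 and 3.28 on the Aa arrays and -0.76, -1.83 and 0.57 on the N arrays. Bio and N overlapped, Bio and Aa overlapped through Bio 3, and Aa and N did not.

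The 4 transcripts annotated as ZmNAS1 followed. GRMZM2G034956 stood at 4.97, 4.58 and 7.04 in Bio roots, at 6.73, 7.44 and 7.21 in Aa roots and at 3.77, 2.40 and 5.31 in N roots. All 3 of its spots on slide 3 were marked as outliers by the scanner software, so that the tests of this transcript use slides 1 and 2. GRMZM2G385200 (nas1) stood at 5.17, 4.63 and 6.85 in Bio roots, at 6.78, 7.45 and 6.99 in Aa roots and at 3.70, 2.47 and 5.28 in N roots. In both transcripts array N 3 was above Bio 1 and Bio 2, and Bio 3 was above Aa 1. GRMZM2G312481 had 5.65, 5.22 and 7.42 in Bio roots, 7.26, 7.95 and 7.47 in Aa roots and 4.47, 3.48 and 5.85 in N roots, with the spot on N 2 marked and missing from its tests. AC233955.1_FGT003 had 2.82, 2.12 and 5.22 in Bio roots, 4.84, 5.63 and 5.55 in Aa roots and 1.11, -0.01 and 2.97 in N roots. The 3 Aa arrays were the closest to each other in all 6 transcripts, and the Bio and N arrays were spread more widely. Of the 54 spots of the family 53 were well above background, 4 were marked and 0 were saturated.

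**Figure D1:**
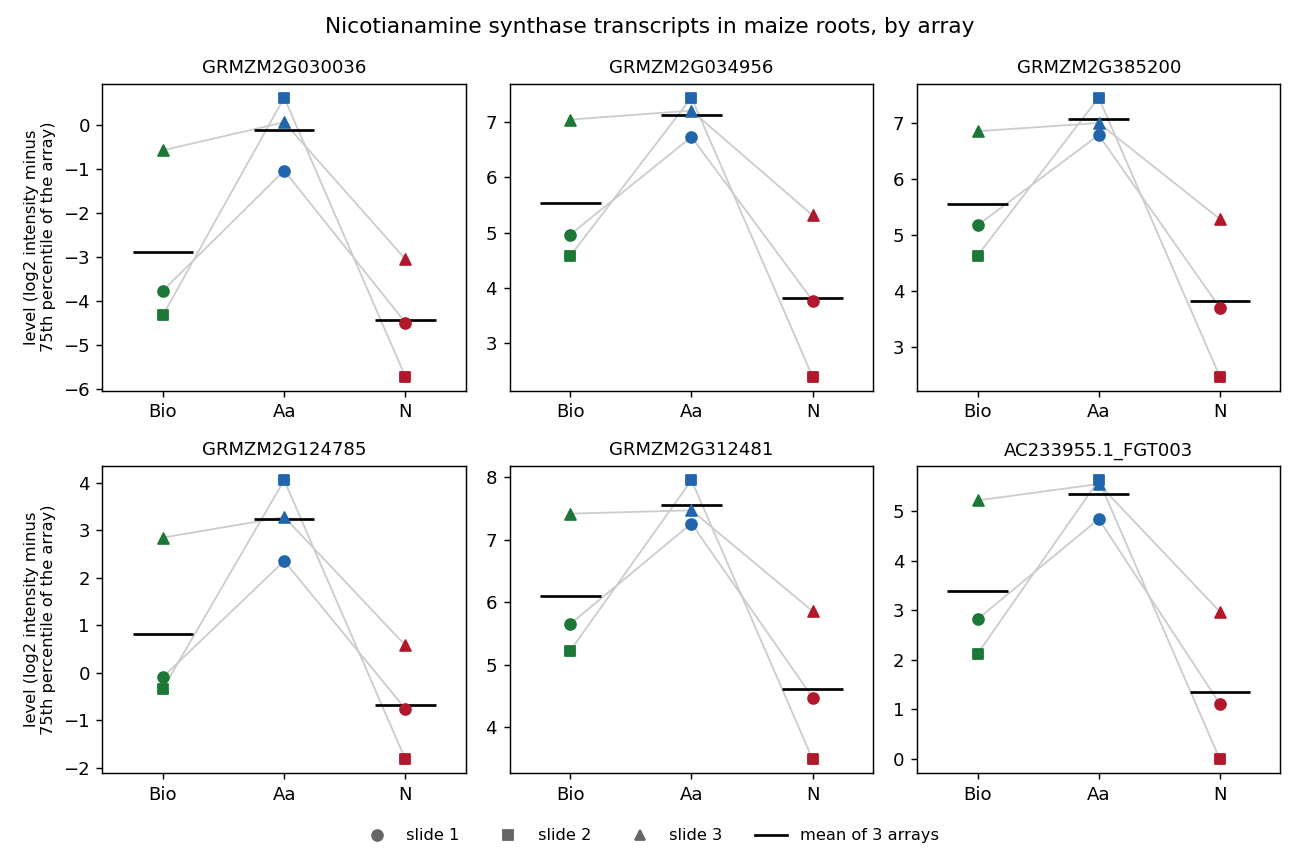
Level of each NAS transcript (log2 intensity minus the 75th percentile of the array) in Bio, Aa and N roots, 1 point per array, with the mean of 3 arrays as a black bar, the slide as the symbol and grey lines joining the arrays of a slide. In each panel Aa lies above N without overlap, and the Bio array of slide 3 (triangle) lies beside the Aa arrays while the other Bio arrays lie near N.

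The order of the 9 arrays was the same for all 6 transcripts: Aa 2, Aa 3, Bio 3, Aa 1, N 3, Bio 1, Bio 2, N 1 and N 2 from high to low. Of all 39372 transcripts, 14 had this order, the members included, which is 0.0356%. That order was taken from the members themselves, which were chosen on these arrays, so that nothing is read from this share. Over the 9 arrays the correlation between pairs of members was 0.968 to 0.999 (15 pairs, median 0.981), and after removal of the treatment means it was 0.935 to 0.996 (median 0.972). These correlations describe shared variation over the same RNA samples, and the members are not independent of each other. The spread within a treatment was also shared. In Bio roots the SD over 3 arrays was 1.16 to 2.02 (median over the members 1.47), against a median of 0.41 over all transcripts. In Aa roots it was 0.34 to 0.85 (median 0.40), against 0.25 over all transcripts, and in N roots it was 1.19 to 1.51 (median 1.37), against 0.28. The share of all transcripts with an SD at least as large as the smallest of the members was 5.48% in Bio, 36.6% in Aa and 3.5% in N roots. The NAS transcripts thus varied more than most transcripts among Bio and among N pools.

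Aa vs. N asks whether the transcripts differ between free amino acids and NH4H2PO4 at the same total N. GRMZM2G030036 had a mean of -0.12 ± 0.84 in Aa roots and -4.42 ± 1.34 in N roots (SD, n = 3 each), a 19.7-fold difference. In limma its log2 fold change was 4.30 ± 1.03 (SE), and its adjusted p of 0.408 missed the threshold of 0.01. This value depended on the treatment of the background. After the normexp correction, which adds an offset of 50 intensity units, it was 2.11 relative to all transcripts, the smallest of the 6. The others then stood at 4.00 to 6.15. AC233955.1_FGT003 averaged 5.34 ± 0.43 in Aa roots and 1.36 ± 1.51 in N roots, 15.8-fold apart (adjusted p of limma 0.396). GRMZM2G124785 averaged 3.23 ± 0.85 in Aa roots and -0.67 ± 1.2 in N roots, 14.96-fold apart (adjusted p of limma 0.407). With every spot kept, the differences of GRMZM2G034956, GRMZM2G385200 and GRMZM2G312481 were 9.84-fold, 9.55-fold and 7.77-fold. The median log2 difference of the 6 was 3.60, beside -0.01 over all transcripts.

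No member passed the threshold in Aa vs. N (background 0% of 38453 transcripts tested: limma called 0, as did the methods' t-test once adjusted). All 6 had an unadjusted p of limma below 0.05 and were higher in Aa, as were 3.07% of all transcripts tested. All 6 also had Aa arrays clear of the N arrays at a fold change of 2, beside 1.52% of all transcripts. Since the study chose the 6 on this contrast, nothing is read from these counts. The exact permutation test over 3 arrays against 3 gave 0.1 for each transcript, two-sided, which is the smallest p that this size allows. With the slide as a block, all 6 again had an unadjusted p below 0.05 (4.45% of all transcripts, higher in Aa), and the adjusted p of limma was 0.285 to 0.338, so that it missed the threshold as well. Within the slides, the Aa minus N difference of the members was 2.79 to 3.73 on slide 1, 4.47 to 6.34 on slide 2 and 1.62 to 3.11 on slide 3. It was positive on every slide, as for 16.7% of all transcripts, and largest on slide 2, which carried the highest Aa and the lowest N array.

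Bio vs. N asks the same of the protein hydrolysate. The differences were smaller, and the arrays of Bio and N overlapped for every member. GRMZM2G030036 averaged -2.89 ± 2.02 in Bio roots and -4.42 ± 1.34 in N roots (SD, n = 3 each), with a log2 fold change in limma of 1.53 and a 95% interval of -0.81 to 3.88 (adjusted p 0.701). AC233955.1_FGT003 averaged 3.39 ± 1.62 in Bio roots and 1.36 ± 1.51 in N roots, with a log2 fold change of 2.03 and an interval of -0.04 to 4.10 (adjusted p of limma 0.683). GRMZM2G385200 averaged 5.55 ± 1.16 in Bio roots and 3.82 ± 1.41 in N roots, and its log2 fold change of 1.73 had an interval of 0.02 to 3.45 (adjusted p of limma 0.683). The upper ends of these intervals lie above a log2 fold change of 3, and their lower ends at or near 0 or below it. The median log2 difference of the 6, with every spot kept, was 1.62 (range 1.48 to 2.03), beside 0.03 over all transcripts. After the normexp correction the log2 fold changes were 0.52 for GRMZM2G030036 and 1.52 to 3.28 for the others, relative to all transcripts.

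No member passed the threshold in Bio vs. N (background 0% of 38553: limma called 0, as did the methods' t-test once adjusted). Of the 6 members 2, GRMZM2G034956 and GRMZM2G385200, had an unadjusted p of limma below 0.05 and were higher in Bio, beside 3.53% of all transcripts. In that fit, without marked spots, GRMZM2G034956 had a log2 fold change of 1.69 ± 0.53 (SE). With marked spots kept it was 1.70 ± 0.81. None of the 6 had Bio arrays clear of N arrays at a fold change of 2, a criterion that 1.13% of all transcripts met in that direction. The exact permutation p was 0.3 to 0.4. With the slide as a block, 3 members had an unadjusted p below 0.05, AC233955.1_FGT003 in addition (4.82% of all transcripts, higher in Bio), and the adjusted p of limma was 0.464 to 0.598. Single arrays moved these values. Without Bio 3 the log2 fold change of the members was 0.27 to 1.69 (median 0.77), where the value of 1.69 is that of GRMZM2G034956, whose Bio 3 spot had no part in the fit. Without N 2 it was 0.88 to 1.35 (median 0.97), and without N 1 that of GRMZM2G312481 was 0.24. Within the slides, however, the Bio array was above the N array for every member. Bio minus N was 0.67 to 1.71 on slide 1, 1.40 to 2.18 on slide 2 and 1.56 to 2.47 on slide 3. A Bio array above the N array of its slide on all 3 slides was found for all 6 members and for 15.1% of all transcripts. The 6 were chosen on Aa vs. N, which uses the same N arrays, so that nothing is read from this count.

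**Figure D2:**
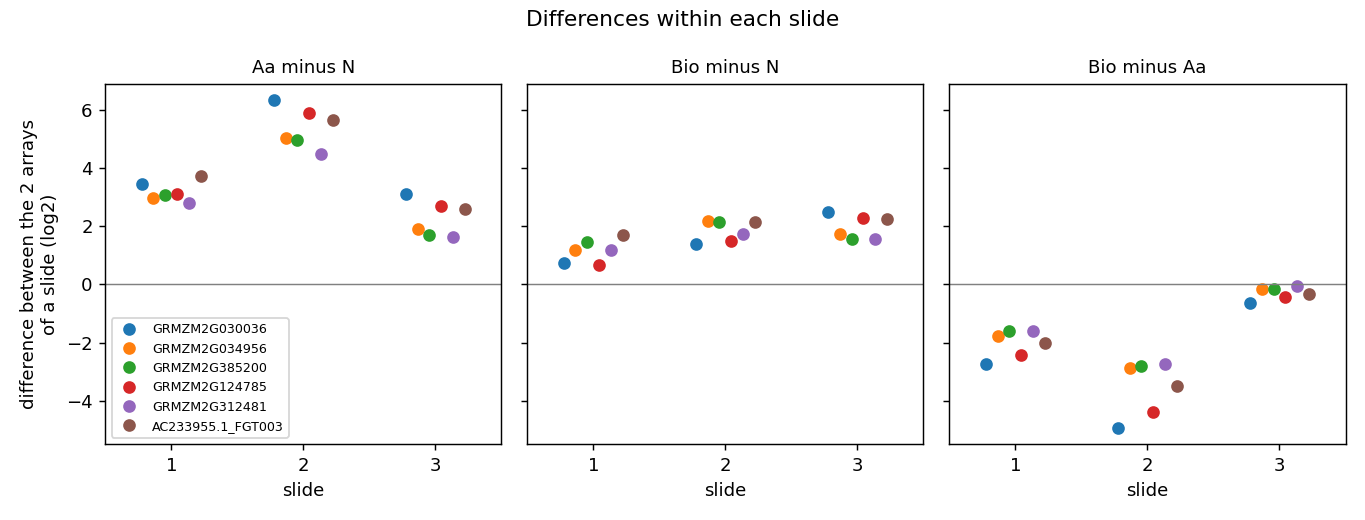
Difference between 2 arrays of the same slide (log2) for each NAS transcript, by slide, with Aa minus N on the left, Bio minus N in the middle and Bio minus Aa on the right. Bio minus N is above 0 on every slide (0.67 to 2.47), while Bio minus Aa is far below 0 on slides 1 and 2 and close to 0 on slide 3 (-0.64 to -0.05).

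Bio vs. Aa compares the hydrolysate directly with the free amino acids. The members were lower in Bio roots, by a median log2 difference of -1.77 with every spot kept (range -2.76 to -1.46), beside 0.05 over all transcripts. GRMZM2G030036 had -2.89 ± 2.02 in Bio roots and -0.12 ± 0.84 in Aa roots (SD, n = 3 each) and a log2 fold change in limma of -2.76 ± 1.03 (SE, adjusted p 0.790). For GRMZM2G124785, with 0.81 ± 1.77 in Bio roots and 3.23 ± 0.85 in Aa roots, it was -2.42 ± 0.93 (adjusted p of limma 0.790). GRMZM2G312481 stood at 6.10 ± 1.16 in Bio roots and 7.56 ± 0.36 in Aa roots, with -1.46 and a 95% interval of -2.89 to -0.04 (adjusted p of limma 0.790). No order of the members is read from these sizes: their intervals overlapped, and after the normexp correction GRMZM2G030036 had -1.61, the smallest in size of the 6, and GRMZM2G034956 had -2.89.

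No member passed the threshold in Bio vs. Aa (background 0% of 38619: limma called 0, as did the methods' t-test once adjusted). Of the 6 members 4, all but GRMZM2G385200 and AC233955.1_FGT003, had an unadjusted p of limma below 0.05 and were lower in Bio, beside 1.79% of all transcripts. This count comes from the fit without marked spots, where GRMZM2G034956 had -2.31 ± 0.53 (SE) and GRMZM2G312481 -1.46 ± 0.61. With marked spots kept they had -1.60 ± 0.81 and -1.46 ± 0.69. None had Bio arrays clear of the Aa arrays at a fold change of 2, a criterion that 0.348% of all transcripts met in that direction, because Bio 3 lay above Aa 1 in each. The exact permutation p was 0.2 for each member. With the slide as a block, all 6 had an unadjusted p below 0.05 (3.31% of all transcripts, lower in Bio), and the adjusted p of limma was 0.658. Without Bio 3 the log2 fold change was -3.92 to -2.12 (adjusted p of limma 0.328 to 0.467). Bio minus Aa within a slide was -2.72 to -1.61 on slide 1, -4.93 to -2.73 on slide 2 and -0.64 to -0.05 on slide 3, below 0 for every member. A Bio array below the Aa array on all 3 slides was found for 14.7% of all transcripts. The full order, Aa above Bio above N on every slide, was found for all 6 members and for 1.12% of all transcripts. Bio vs. N and Bio vs. Aa share the Bio arrays, and both N comparisons share the N arrays, so that these counts are not independent of each other. The 6 were also chosen for a gap between Aa and N on these arrays, and such a gap leaves room for Bio in between. The shares over all transcripts, which were not so chosen, are therefore no measure for the members, and nothing is read from these counts.

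**Figure D3:**
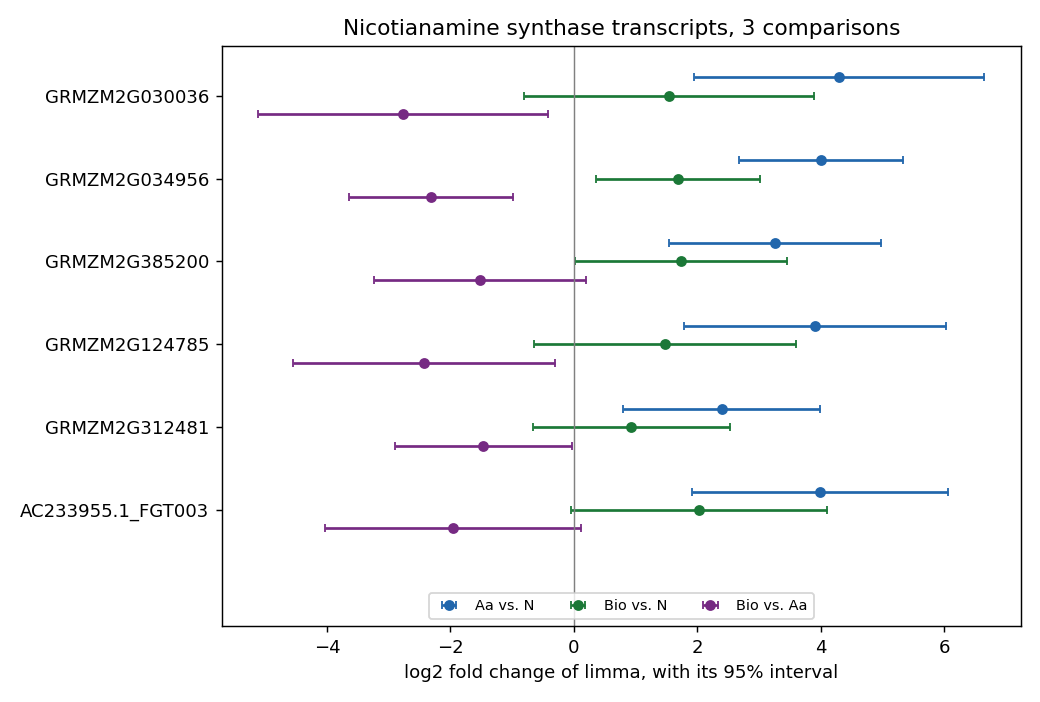
Log2 fold change of limma with its 95% interval for each NAS transcript, with Aa vs. N on top (blue), Bio vs. N in the middle (green) and Bio vs. Aa below (purple). All 6 intervals of Aa vs. N lie above 0 before adjustment (GRMZM2G030036 at 4.30), 4 of the 6 of Bio vs. N include 0, and the fold changes of Bio vs. Aa lie between -2.76 and -1.46.

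The enzymes after NAS in phytosiderophore synthesis were also highest on average in Aa roots. Whether they differed from each other in how Bio compared with N was not tested. Nicotianamine aminotransferase (NAAT), which converts nicotianamine to the keto intermediate, and deoxymugineic acid synthase (DMAS), which reduces that intermediate, are both among the genes the study named, as is a NAAT-like transcript, so that their direction in Aa vs. N is not independent evidence. NAAT1 (GRMZM2G096958) stood at -4.30, -4.70 and -2.59 in Bio roots, at -2.59, -1.57 and -2.38 in Aa roots and at -6.35, -7.94 and -4.73 in N roots. Every Bio and Aa array lay above the N arrays, and Bio 3 lay just above Aa 1. The log2 fold change of limma was 4.16 ± 0.82 in Aa vs. N (adjusted p 0.374) and 2.48 ± 0.82 in Bio vs. N (adjusted p 0.683). On 1 of the 3 N arrays NAAT1 was not well above background. DMAS1 (GRMZM2G060952) stood at 0.50, -0.12 and 2.04 in Bio roots, at 1.84, 3.22 and 2.58 in Aa roots and at -0.03, -0.15 and 0.59 in N roots, with a log2 fold change of limma of 2.41 ± 0.56 in Aa vs. N (adjusted p 0.396) and of 0.67 ± 0.56 in Bio vs. N (adjusted p 0.776). Its Bio and N arrays overlapped. Of these 3 transcripts, none passed the threshold in any comparison. All 3 had an unadjusted p of limma below 0.05 and were higher in Aa vs. N (3.07% of all transcripts), and 1, NAAT1, in Bio vs. N (3.53%). The study also reported NAAT1 as higher in Bio vs. N on these arrays, so that neither count is independent evidence. The NAAT-like GRMZM2G412604 stood at -3.30, -2.95 and -1.93 in Bio roots, at -1.63, -0.78 and -1.84 in Aa roots and at -2.77, -3.18 and -3.08 in N roots. Its Bio 1 array was below every N array, unlike the NAS members, which had Bio above N on each slide. The log2 fold change of limma was 1.59 ± 0.40 in Aa vs. N (adjusted p 0.419) and 0.29 ± 0.40 in Bio vs. N (adjusted p 0.888).

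Of 8 transporters of phytosiderophores or nicotianamine, none passed the threshold, and 4 in Aa vs. N (3.07% of all transcripts) and 1 in Bio vs. N (3.53%) had an unadjusted p of limma below 0.05 and were higher. Of the 4, YS1, GRMZM2G135291 and GRMZM2G024196 were listed because the study named them on these arrays, so that this count is not independent evidence, and the other is YS3. The 1 in Bio vs. N is GRMZM2G024196. The study listed it and YS1 as higher in that comparison too, so that this count is not independent evidence either. The median log2 difference over the 8 was 0.95 in Aa vs. N and 0.58 in Bio vs. N. YS3 (GRMZM2G063306), the maize gene whose mutant fails to release phytosiderophores, had -1.41, -1.71 and 2.25 in Bio roots, 2.08, 3.19 and 2.65 in Aa roots and -2.58, -3.00 and -0.71 in N roots. As in the synthases, Bio 3 lay with the Aa arrays and N 3 lay above the other Bio arrays. Its log2 fold change of limma was 4.74 ± 1.03 in Aa vs. N (adjusted p 0.396), 1.81 in Bio vs. N (adjusted p 0.683) and -2.93 in Bio vs. Aa (adjusted p 0.790). YS1 (GRMZM2G156599), which takes up the iron-phytosiderophore complex had 2.48, 2.53 and 4.46 in Bio roots, 4.54, 5.80 and 4.95 in Aa roots and 2.35, 1.53 and 2.09 in N roots. For YS1 the treatments did not overlap, with Aa above Bio above N, although Bio 1 and Bio 2 lay close to N 1. Of its spots 3 were marked, kept in these levels and missing from the fit.

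GRMZM2G135291, annotated by the study as a putative iron-phytosiderophore transporter, had -0.33, -0.22 and 1.34 in Bio roots, 0.75, 2.22 and 1.77 in Aa roots and -0.29, -0.61 and -0.16 in N roots. Bio 3 fell among the Aa arrays and the other Bio arrays among the N arrays, and the log2 fold change of limma in Aa vs. N was 1.93 ± 0.51 (adjusted p 0.427). Other YS1-like transcripts had differences near 0. In Aa vs. N, the log2 fold change of limma was -0.03 ± 0.33 for ysl14A (GRMZM2G368398), -0.20 ± 0.36 for ysl12 (GRMZM5G893444) and 0.11 ± 0.29 for ysl11 (GRMZM5G812538). Their correlation with the mean level of the NAS members over the 9 arrays was -0.14, 0.05 and 0.26, as a description. The transcript ysl17 was not well above background on any array. GRMZM2G024196, which the study annotated as a probable metal-nicotianamine transporter, was higher in Bio than in Aa roots, with 0.66, 1.55 and 0.99 in Bio roots, 0.46, 0.58 and 0.29 in Aa roots and -0.43, -1.28 and -0.98 in N roots. Its log2 fold change of limma was 1.96 ± 0.29 in Bio vs. N (adjusted p 0.461) and 0.62 ± 0.29 in Bio vs. Aa (adjusted p 0.790). No transcript had a smaller adjusted p in Bio vs. N, but the adjustment gives ties, so that this is not a rank.

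The methionine salvage cycle returns the methylthioadenosine released by NAS to methionine and S-adenosylmethionine. Of 5 transcripts of this supply, none passed the threshold. An unadjusted p of limma below 0.05 with a higher level was found for 3 of them in Aa vs. N (3.07% of all transcripts) and 0 in Bio vs. N (3.53%). Of the 3, GRMZM2G464137 and GRMZM2G574782 were listed because the study named them on these arrays, so that the count is not independent evidence, and the other is IDI2. IDI2 (GRMZM2G139533), named after a barley gene induced by iron deficiency, stood at -1.02, -1.04 and 0.67 in Bio roots, at 0.95, 2.09 and 1.39 in Aa roots and at -1.34, -0.67 and -0.39 in N roots, with Bio clear of Aa and overlapping N. Of its spots 3 were marked and missing from the fit. The log2 fold change of limma was 1.75 in Aa vs. N and -0.23 in Bio vs. N, where the levels differed by 2.27 and 0.34. GRMZM2G464137, annotated by the study as methylthioribose kinase 1, had 0.69, 1.60 and 3.14 in Bio roots, 2.48, 3.66 and 3.66 in Aa roots and 1.01, 1.40 and 1.66 in N roots, and Bio 3 again fell among the Aa arrays. The transcript sam2, for an S-adenosylmethionine synthetase, was not well above background on any array, and aprt1, for an adenine phosphoribosyltransferase, was so on 1 array, Aa 2.

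A further 3 transcripts of iron transport and storage were read, and none passed the threshold. An unadjusted p of limma below 0.05 with a higher level was found for 2 of the 3, Nramp1 and GRMZM2G148060, in Aa vs. N (3.07% of all transcripts). In Bio vs. N it was found for 1, Nramp1 (3.53%). GRMZM2G148060 was listed because the study named it in Aa vs. N on these arrays, so that the first count is not independent evidence. The ferritin gene fer1 (GRMZM2G325575), whose product stores iron, had 0.80, -0.22 and -0.01 in Bio roots, -0.02, -0.81 and 0.47 in Aa roots and 0.12, 0.91 and 0.77 in N roots. The 3 treatments overlapped, and its log2 fold change of limma in Aa vs. N was -0.63 ± 0.47 (adjusted p 0.910). Nramp1 (GRMZM2G147560), of a family of metal ion transporters, had a log2 fold change of limma of 1.28 ± 0.49 in Aa vs. N (adjusted p 0.617) and 1.15 ± 0.49 in Bio vs. N (adjusted p 0.683). GRMZM2G148060, with a ferroportin domain and named by the study, had 2.27, 1.80 and 1.83 in Bio roots, 2.03, 2.96 and 2.30 in Aa roots and 1.54, 0.34 and 1.11 in N roots, so that both Bio and Aa lay clear of N. Of its spots on the 9 arrays, 5 were marked and missing from the fit. Its log2 fold change of limma was 1.44 ± 0.36 in Aa vs. N (adjusted p 0.515), and limma gave no value in Bio vs. N because of marked spots.

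**Figure D4:**
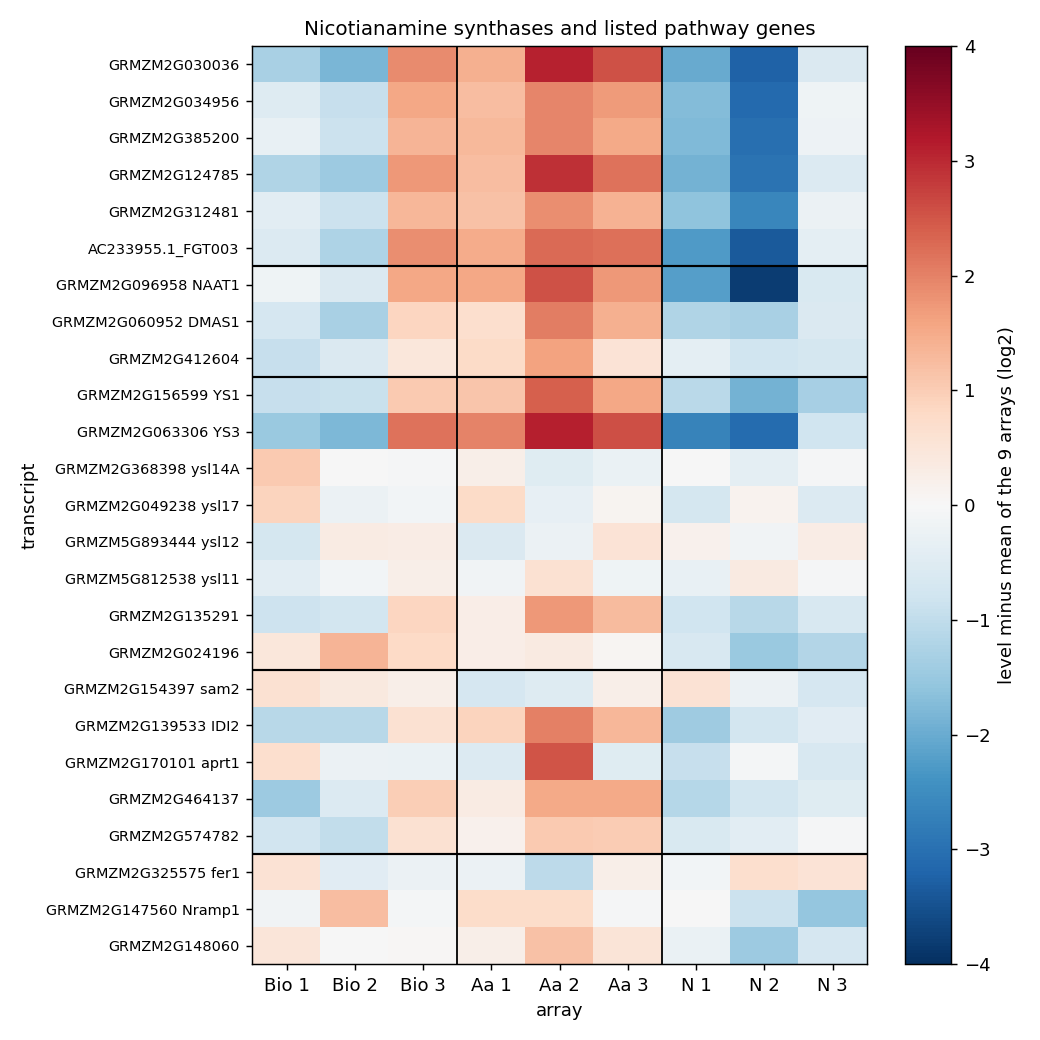
Level minus the mean of the 9 arrays (log2, red above and blue below) for the 6 NAS transcripts (top block) and the 19 listed genes of phytosiderophore synthesis, transport, S-adenosylmethionine supply and other iron transport and storage, 1 column per array. Bio 3 is red with the Aa arrays for the NAS members, NAAT1, DMAS1, YS1 and YS3, whereas ysl12 and ysl11 are pale throughout. The row of ysl14A is pale except on Bio 1, where it is above its mean.

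A search over 30105 transcripts well above background on at least 6 of the 9 arrays gave the 10 whose levels over the arrays were most like the mean of the NAS members, by Pearson correlation as a description. It was 0.99 for AC218002.3_FGT001, an uncharacterised protein in the study's annotation, and 0.99 for GRMZM2G035599, annotated there as ribose-5-phosphate isomerase. YS3 came next with 0.99 and NAAT1 with 0.98, followed by GRMZM2G449133 (a putative epoxide hydrolase), GRMZM2G061052, GRMZM2G080575, GRMZM2G163751, GRMZM2G167829 and GRMZM2G096247, at 0.97 to 0.98. AC218002.3_FGT001 averaged -4.72 in Bio roots, -2.18 in Aa roots and -6.18 in N roots. GRMZM2G035599 averaged 3.96 in Bio roots, 6.04 in Aa roots and 2.42 in N roots, so that it too was intermediate in Bio roots. After removal of the treatment means, 2 of the 10, AC218002.3_FGT001 and GRMZM2G035599, were again among the 10 most alike. The arrays share slides and RNA pools, and no shared function is read from the likeness.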

How the data were processed

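The authors hybridized 9 one-colour arrays and read them with Feature Extraction 10.5.1.1. The deposited intensity of each spot had background and spatial trends removed, per the file headers, and was not scaled between arrays. A table the authors also deposited holds the same intensities multiplied by 1 factor per array, and served as an alternative. Intensities were converted to log2 and each array's 75th percentile was subtracted. Marked spots (5.68%) were missing in tests and kept in levels and medians. limma 3.58.1 in R 4.3.3 (lmFit, eBayes) was fitted to all 9 arrays and 39372 transcripts, without a block, with p-values adjusted by Benjamini-Hochberg. The threshold was an adjusted p of 0.01 and a fold change of 2. The code of the fit was run on simulated data with independent noise and no slide effect. That setting differs from these arrays, so that nothing about their results is read from it. The number of arrays limits the precision, and p-values measure the spread between 3 pools a treatment.

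The members and lists were chosen with earlier results of these data known. The named transcripts are the 6 members and 19 pathway genes, of which 9 were named by the study on these arrays and 10 through RefSeq (assembly NAM-5.0) symbols and synonyms by words for the function, since the table holds no descriptions. Of the members 2 were in that table. No coordinates were used, and probe and protein sequences were not used here.

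Replicate numbers equal slide numbers. Deviations from the treatment means of same-slide arrays correlated at 0.01 to 0.34, above 0.1 in 8 of 9 pairs. Alternatives were normalization, background correction, spot and dim filters, the spread, the samples in the fit, the slide or replicate block, a Student's t-test, the threshold and the omission of single arrays. The t-test took its p from the t distribution, with Benjamini-Hochberg where adjusted. The study's own permutation p and Bonferroni step were not repeated.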

Additional observations from a re-analysis of the deposited data

How the results depend on the processing

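Limma called 0 transcripts in each comparison under every normalization, background correction, filter, block and threshold tried, and with each array left out. The exceptions came with other tests. The Student's t-test without adjustment, at a p of 0.01 and a fold change of 2, took in 225 transcripts for Aa vs. N (1 member, GRMZM2G030036), 102 for Bio vs. N (0 members) and 57 for Bio vs. Aa (0 members). The criterion of a fold change of 2 and clear separation of the arrays, chosen after seeing the data, took in 1518, 909 and 664 transcripts, of which 6, 0 and 0 were members. Other settings repeat the estimate, but 11 can alter it (quantile, percentile base, normexp, marked spots, block and 6 omissions of an array). In all 66 member values of each comparison under these the direction held, at 1.71 to 6.15 in Aa vs. N, 0.24 to 3.28 in Bio vs. N and -3.92 to -1.03 in Bio vs. Aa. These values are refits of the same arrays, and some settings left single values as they were. The members were also chosen on Aa vs. N, so that nothing is read from the held direction. The median log2 fold change of the members, with marked spots left out, was 3.94 for Aa vs. N, 1.61 for Bio vs. N and -2.13 for Bio vs. Aa. It moved to 3.31 to 4.29, 0.77 to 2.16 and -2.59 to -1.59 when single arrays were left out, lowest in Bio vs. N without Bio 3 (0.97 without N 2). The replicate block, which is the slide, left these medians at 3.94, 1.61 and -2.13, changed no call, and gave 3869, 3743 and 2919 transcripts at an unadjusted p below 0.05, beside 2828, 2717 and 1896 without it. After the normexp correction the median of all transcripts shifted by -0.49, -0.35 and 0.16, and relative to it the members' median was 4.30, 2.44 and -1.87. GRMZM2G030036, dim on N arrays, stood at 2.11, 0.52 and -1.61, and GRMZM2G034956 stood at 6.15, 3.28 and -2.89. The correction also adds an offset of 50 intensity units to every spot, which lowers log2 differences between dim spots. On N 1, N 2 and N 3 the intensity of GRMZM2G030036 before it was 37.7, 12.9 and 115.9 units. How much of these shifts the offset made was not tested.

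With 3 pools a treatment, large differences of these transcripts missed the threshold, and GRMZM2G034956 rested on slides 1 and 2. Binding between copies of the family was not tested.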

Other observations

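AC233955.1_FGT003 is named after a genomic clone, AC233955.1, and the array holds probes for 4 other transcripts of that clone, which were looked at after the values of the member were seen. AC233955.1_FGT002, AC233955.1_FGT004, AC233955.1_FGT008 and AC233955.1_FGT009 had mean log2 differences of 0.14, 0.05, -0.17 and 1.03 in Aa vs. N, against 3.98 for AC233955.1_FGT003. In Bio vs. N they had 0.05, -0.08, -0.29 and 0.05, against 2.03. AC233955.1_FGT002 and AC233955.1_FGT004 were well above background on all 9 arrays, AC233955.1_FGT008 on 8 and AC233955.1_FGT009 on 6.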
